A study of Mus musculus with 6 samples.

Results

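The genes described here encode the enzymes that run the mitochondrial beta-oxidation spiral: Acadvl, Acadl, Acadm, Acads, Hadha, Hadhb, Hadh, Echs1, Acaa2 and Eci1. They were chosen by name for their place in the pathway, with earlier results of these data known. All 10 were found among the 54532 genes of the deposited table and passed the filter on low values that left 10460 genes for testing. RNA was measured in 6 libraries from hearts of 18-week-old wild-type C57BL/6 mice, all described by the study as hypertrophic. The control group holds 3 libraries from hearts that had received AAV9-EGFP, an adeno-associated virus of serotype 9 that carries a fluorescent protein. The other group holds 3 libraries from hearts that had received AAV9 anti-miR-199a TuDs, the same vector type carrying tough decoys, which are RNAs that hold a microRNA in a stable hairpin. The groups are called EGFP and TuD. How hypertrophy was induced, the dose, the promoter of the vectors and the time after injection are not given in the sources used here, and the labels name the tissue only as myocardium.

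Beta-oxidation shortens a fatty acyl-CoA by an acetyl-CoA unit per turn, in 4 steps: dehydrogenation, hydration, a further dehydrogenation and thiolytic cleavage. Long acyl chains are handled at the inner mitochondrial membrane by very-long-chain acyl-CoA dehydrogenase and the trifunctional protein, and shorter ones by soluble enzymes of the matrix. The adult heart draws much of its ATP from this pathway, and the receptor PPARα with its partners is a known activator of these genes.

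The decoys are directed at miR-199a, whose arms have different seeds. The mature sequences, from RefSeq, are shown because the search for matching sites rests on them; capitals mark the seed, bases 2 to 8 from the 5′ end.
miR-199a-5p: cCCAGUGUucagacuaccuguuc
miR-199a-3p: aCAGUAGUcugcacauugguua
The longest annotated 3′ UTR of each gene was searched for the 7 letters that pair with each seed, ACACTGG for miR-199a-5p and ACTACTG for miR-199a-3p. None of the 10 UTRs held either one. A second form of site, also of 7 letters, was counted as well: the letters that pair with the seed without its last base, followed by A. None of the 10 UTRs held that form. Among 9545 tested genes with an annotated 3′ UTR, 23.2% held a site of either form for miR-199a-5p and 13.7% for miR-199a-3p. The shares with the first form alone were not counted separately. The UTRs of the 10 genes run from 113 bases in Acadvl to 1511 in Hadha, and were not compared in length with those of the other tested genes. The absence of these forms says nothing of other kinds of site.

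Of the 10 genes, 5 were lower in TuD hearts and none was higher: Acadvl, Acads, Hadha, Hadhb and Hadh. Over all tested genes 29.1% passed the same test, 14.2% being lower and 14.8% higher; the test was limma on log2 of normalised FPKM plus 0.5 with Benjamini-Hochberg adjusted p under 0.05. The median log2 fold change of the 10 genes, TuD minus EGFP, was -0.38, against 0.009 over all tested genes. In the same 5 genes the groups did not overlap, with every TuD library below every EGFP library, a pattern seen in 24.4% of tested genes (23.5% for the reverse). The 5 genes that fell are the entry enzyme for the longest chains, the entry enzyme for the shortest, both subunits of the trifunctional protein and the matrix hydroxyacyl-CoA dehydrogenase. The 5 that did not pass are the long-chain and medium-chain dehydrogenases, the matrix hydratase, the matrix thiolase and the isomerase. A lower level in whole heart RNA can mean fewer cells of a type or less RNA per cell, and these cannot be told apart here.

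**Figure D1:**
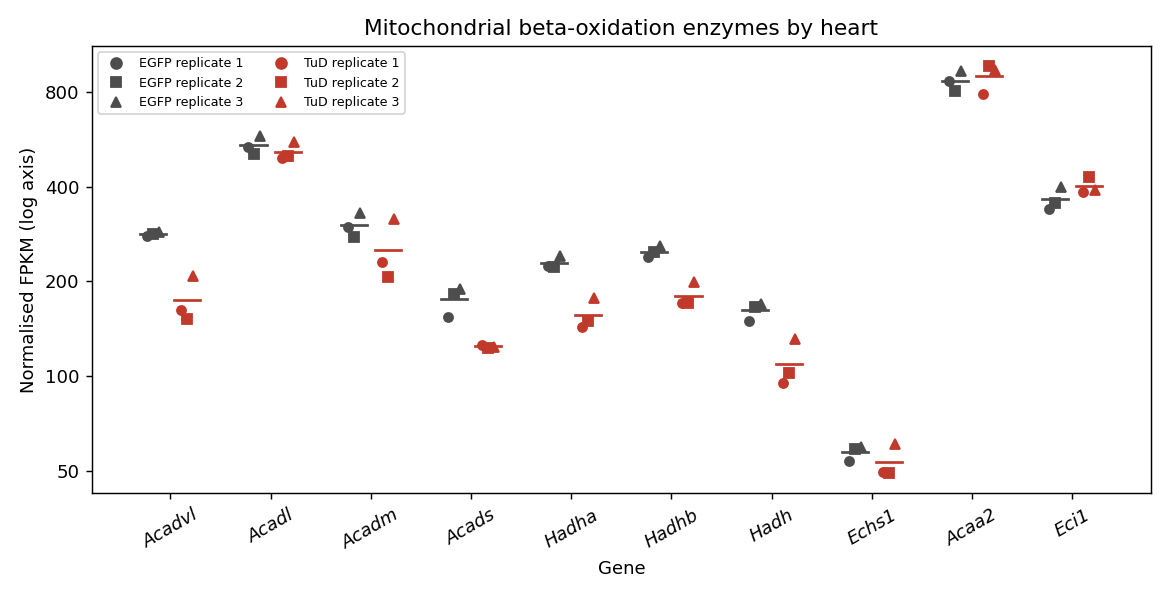
Normalised FPKM (vertical axis, log scale) of the 10 genes in each of the 6 libraries, with dots for libraries and short bars for group means. For Acadvl, Acads, Hadha, Hadhb and Hadh every TuD dot lies below every EGFP dot, while the dots of the other 5 genes overlap.

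The groups differed in more than the vector, and these differences touch the values that follow. Library depth was 15.2 to 16.7 M assigned reads (M, megareads) in TuD and 18.02 to 18.2 M in EGFP, and each of the 10 genes had between 4022 and 39900 reads in each library. Transcripts of Y-linked genes summed to 8.32 to 9.59 FPKM in the EGFP libraries and 12.5 in TuD replicate 3, but to 0.0254 and 0.00711 in TuD replicates 1 and 2. In TuD replicate 3 the atrial transcripts Myl7, Sln and Myl4 stood at 90.7, 10.7 and 12.7 normalised FPKM, against at most 1.44, 0.158 and 1.06 in the other 5 libraries. Nppa, the remaining gene of the atrial list, went the other way: it was at 99.5 in TuD replicate 3, the lowest of the 6, against 121 to 369 in EGFP and 212 and 152 in TuD replicates 1 and 2. Of the 4, 2 did not pass and 2 were too low to be tested, and the list summed to 121.4 to 369.6 in EGFP and 155 to 214 in TuD. Ventricular and general cardiomyocyte markers summed to 23540 to 24720 in EGFP and 25180 to 31520 in TuD, with 4 of 6 higher in TuD and none lower. White adipocyte markers summed to 0.102 to 0.817 in EGFP and 3.68 to 11.4 in TuD, with 1 of 4 passing the test (Cfd, higher) and 3 too low to be tested. Of the brown fat markers, Ucp1 was at 0 in 4 of 6 libraries, while Cidea was at 34.05 to 36.1 in EGFP and 36.6 to 45.2 in TuD and did not pass. Macrophage markers summed to 134 to 158 in EGFP and 144 to 275 in TuD with 0 of 5 passing, fibroblast markers to 119 to 132 and 109 to 160.5 with 1 of 5 lower, and endothelial markers to 174 to 212 and 166 to 243 with 1 of 5 higher. Erythroid markers summed to 1146 to 1612 and 1374 to 3290 with 2 of 5 higher. The part of these differences in the results below was not tested, except where a value without a library is given.

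Acyl-CoA dehydrogenases carry out the first step, each on its own range of chain lengths. Acadvl, on chromosome 11 (chr11:70010183-70015411, minus strand, mm10), encodes the membrane-bound enzyme for very long chains. Its normalised FPKM was 279, 284 and 288 in the EGFP libraries and 162, 152 and 208 in TuD replicates 1, 2 and 3. All 3 controls lay within a narrow band, all 3 TuD libraries lay below it, and TuD replicate 3 was nearest to it. The mean went from 283.5 ± 4.68 to 174 ± 29.8 (SD, n = 3 per group), a log2 fold change of -0.71 ± 0.14 (SE) with an adjusted p of 0.00834. Acadvl was the only one of the 10 to stay lower whichever single library was left out.

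Acads, the short-chain acyl-CoA dehydrogenase (chr5:115110299-115119346, minus strand), measured 154.5, 183 and 189.6 in EGFP and 125.5, 123 and 124 in TuD. Its TuD libraries were almost equal, and EGFP replicate 1 was the control closest to them. The means were 176 ± 18.6 and 124 ± 1.27 (SD, n = 3), a log2 fold change of -0.49 ± 0.11 with an adjusted p of 0.0154. Unlike the other genes that fell, Acads had a level in TuD replicate 3 between those of TuD replicates 1 and 2.

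The middle of the chain-length range did not pass. Acadm, the medium-chain acyl-CoA dehydrogenase (chr3:153922357-153944632, minus strand), stood at 299, 278 and 331 in EGFP and 231, 207 and 316 in TuD. TuD replicates 1 and 2 lay below every control, while TuD replicate 3 lay among them. Its log2 fold change of -0.29 ± 0.17 had an adjusted p of 0.226, and its 95% confidence interval ran from -0.68 to 0.10. Without TuD replicate 3 Acadm was the one gene added to those called lower.

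Acadl encodes the long-chain acyl-CoA dehydrogenase (chr1:66830839-66863277, minus strand), which is abundant in rodent heart. It read 536, 509.9 and 582 in EGFP and 495, 502 and 554 in TuD, so the groups overlapped. Its log2 fold change was -0.070 ± 0.12, with an interval of -0.34 to 0.20 that leaves room for a modest change in either direction.

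The trifunctional protein is a complex of alpha and beta subunits that carries out the last 3 steps on long chains. Hadha (chr5:30118304-30155162, minus strand) encodes the alpha subunit, with the hydratase and dehydrogenase activities. Its level was 224, 222 and 241 in EGFP and 144, 149.5 and 177 in TuD. Every TuD library lay below every EGFP library. The means of 229 ± 10.7 and 157 ± 18.1 (SD, n = 3) gave a log2 fold change of -0.55 ± 0.12, adjusted p 0.0123.

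Hadhb (chr5:30155248-30184593, plus strand) encodes the beta subunit, the long-chain thiolase. Its libraries measured 239, 248 and 259 in EGFP and 171, 171 and 199 in TuD, again without overlap. The means were 249 ± 10.4 and 180.3 ± 15.9 (SD, n = 3), the log2 fold change -0.47 ± 0.11 and the adjusted p 0.0175. Across the 6 libraries Hadha and Hadhb followed each other more closely than any other pair of the 10, with a Pearson r of 0.995. This value describes 6 libraries in 2 groups that share the group difference.

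The ratio of the subunits moved little. On the log2 scale, per deposited gene length, Hadhb over Hadha was 0.091, 0.163 and 0.105 in EGFP and 0.250, 0.196 and 0.162 in TuD. The lowest TuD value was just under the highest EGFP value, so the groups overlapped. The difference of 0.083 had a two-sided exact permutation p of 0.2, where 3 against 3 cannot go below 0.1. After removal of a trend with deposited gene length, described below, the difference was 0.054. With the trend taken on principal transcript length, a choice made after the data were seen, it was -0.094, so its direction depends on the length used.

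Hadha and Hadhb lie head to head on chromosome 5, with 85 bases between their starts in the deposited coordinates. The whole stretch between them is shown because both genes fell and followed each other; it is read on the strand of Hadhb (GRCm38, chr5:30155163-30155247), and capitals mark GGGCGG, the GC box.
between Hadha and Hadhb: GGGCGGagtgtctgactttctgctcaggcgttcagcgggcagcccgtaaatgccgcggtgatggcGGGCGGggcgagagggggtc
In this gap the GC box occurs on the Hadhb strand at each of its 2 marked places. The RefSeq start of Hadha lies further inside the gene than the start that bounds this gap. Windows ran from 250 bases before to 50 after each RefSeq start and were available for 9 of the 10 genes. GGGCGG on either strand was in 7 of 9, against 35.7% of 32851 windows of that length. The 32851 windows were not limited to tested genes and were not matched for GC content, so the shares are not a like comparison. The windows of Hadha and Hadhb share 228 bases, and the box of Hadha is the same site as the Hadhb box furthest upstream, so it counts for both genes. The 2 genes without it were Acadvl and Acadm. CCAAT was in 1 of 9 (Hadh), against 37.4%, with windows searched on both strands.

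Nuclear receptors such as PPARα and the estrogen-related receptors bind elements built on the letters AGGTCA. This sequence, on either strand, was in the windows of Acadvl, Echs1 and Acadm, 3 of 9 genes against 16.3% of all windows. The stretches are shown because only Acadvl of these passed the test; each reads 5′ to 3′ on the strand of its gene, and capitals mark the match.
Acadvl: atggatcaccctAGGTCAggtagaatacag
Echs1: accagcccgctcAGGTCAcgggtccacccc
Acadm: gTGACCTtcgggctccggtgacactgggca
They lie at chr11:70015498-70015527, chr7:140116487-140116516 and chr3:153944864-153944893. Longer elements matched none of the 9 windows on either strand: TCAAGGTCA, the element of the estrogen-related receptors (in 0.423% of all windows), the PPAR direct repeat, which is AGGTCA repeated with a spacer of 1 base (0.0396%), and the palindromic NRF1 site (0.971%). The first 2 contain AGGTCA. A match or its lack in these windows is a description of letters and not of binding.

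The matrix enzymes differed among themselves. Hadh (chr3:131233419-131272101, minus strand) encodes the hydroxyacyl-CoA dehydrogenase for medium and short chains. It stood at 149.7, 166 and 169.5 in EGFP and 95.1, 102 and 131 in TuD, with no overlap and TuD replicate 3 the closest to the controls. The means were 162 ± 10.5 and 109 ± 19.2 (SD, n = 3), the log2 fold change -0.57 ± 0.14 and the adjusted p 0.0193.

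Echs1 (chr7:140105710-140116476, minus strand) encodes the short-chain enoyl-CoA hydratase, the step before Hadh. Its values were 53.6, 58.6 and 59.4 in EGFP and 49.5, 49.1 and 60.9 in TuD. TuD replicates 1 and 2 lay below the controls and TuD replicate 3 above them, as in Acadm a split within the group. The log2 fold change was -0.11 ± 0.12 (adjusted p 0.506, interval -0.38 to 0.16).

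Acaa2, the thiolase that closes the turn for medium and short chains (chromosome 18, plus strand), was the most abundant of the 10 per deposited length. It measured 869, 805 and 936 in EGFP and 791, 969 and 943 in TuD, so both ranges nearly coincide. Its log2 fold change was 0.047 ± 0.14 with an interval of -0.26 to 0.36 (adjusted p 0.815).

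Eci1 encodes the enoyl-CoA isomerase that brings the double bonds of unsaturated fatty acids into the position the spiral needs (chr17:24426683-24439316, plus strand). Its libraries read 339.9, 356 and 398 in EGFP and 384, 430.1 and 392.2 in TuD. TuD replicates 1 and 3 lay inside the EGFP range. The log2 fold change was 0.14 ± 0.12 (adjusted p 0.385, interval -0.13 to 0.41), and the shift was in the direction opposite to the genes that passed.

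**Figure D2:**
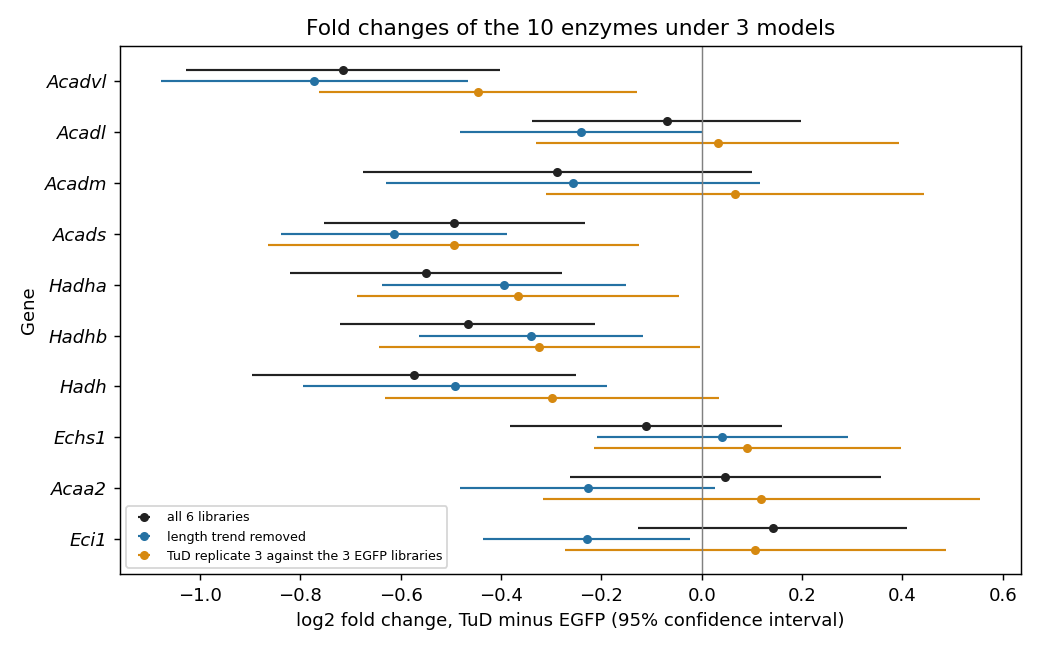
Log2 fold change (horizontal axis, TuD minus EGFP) of each gene with its 95% confidence interval, from all 6 libraries, after removal of the trend with deposited gene length, and from TuD replicate 3 alone against the EGFP libraries, where the spread of that 1 library is assumed. The intervals of Acadvl, Acads, Hadha, Hadhb and Hadh lie below 0 in the first 2 fits, and the estimates from TuD replicate 3 are nearer to 0 for these genes except Acads.

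Added over the 10 genes, normalised FPKM was 3142, 3110 and 3455 in EGFP and 2648, 2854 and 3106 in TuD. The highest TuD sum was just under the lowest EGFP sum. As a share of all assigned reads the 10 genes took 1.03%, 1.05% and 1.12% in EGFP and 0.704%, 0.737% and 0.906% in TuD. These shares are not on the scale of the sums. They count reads without division by gene length, and the deposited FPKM were not scaled to the assigned reads. The make-up of the summed level moved as well. Acadvl went from 8.33% to 9.13% of the sum in EGFP to 5.34% to 6.70% in TuD, while Acaa2 went from 25.9% to 27.7% to 29.9% to 33.9%.

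Across the 6 libraries the 10 genes formed 45 pairs, with a median Pearson r of 0.671. In 16 pairs r was above 0.8 and in 11 it was below 0. Acadvl with Hadhb had an r of 0.99 and Acadvl with Hadha 0.986, while Acadvl and Hadh reached 0.975. Acadm followed Echs1 (0.885) and Acadl (0.878), the genes in which TuD replicate 3 resembled the controls. Negative values belonged to pairs with Eci1 or Acaa2, such as Acadvl with Eci1 at -0.664. These correlations share the group difference, the library depth and 6 points, and are given as a description.

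**Figure D3:**
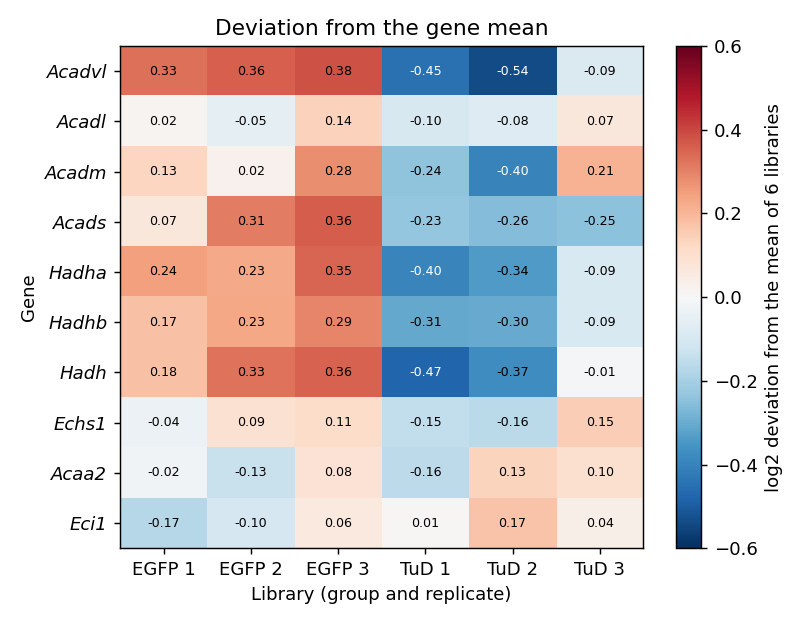
Deviation of each gene (rows) in each library (columns) from its mean over the 6 libraries, on the log2 scale, with colours for below and above the mean. Acadvl, Acads, Hadha, Hadhb and Hadh are above their mean in the EGFP columns and below it in the TuD columns, and TuD replicate 3 is nearer to the mean in Acadvl, Hadha, Hadhb and Hadh but not in Acads.

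TuD replicate 3 is the only TuD library that carries Y-linked transcripts, as all EGFP libraries do. It is also the only library with high Myl7, Sln and Myl4, and these differences cannot be told apart in the model that follows. With a term for the Y-linked transcripts in the model, the group difference rests on TuD replicate 3 against the EGFP libraries. This leaves an arm of 1 library, whose spread is not measured and is assumed to be like that among the EGFP libraries and between TuD replicates 1 and 2, so the p-values and intervals of this model rest on that assumption. The 5 genes kept a negative sign, and none passed. The log2 fold changes were -0.45 for Acadvl (adjusted p 0.0704), -0.49 for Acads (0.0798), -0.37 for Hadha (0.116), -0.32 for Hadhb (0.15) and -0.30 for Hadh (0.193). Under that model 5.19% of all tested genes were lower and 6.1% higher. Acadm and Acadl were then at 0.067 and 0.032, on the other side of 0. The median over the 10 genes was -0.13, against 0.0027 over all tested genes. Leaving out TuD replicate 3 instead gave 6 genes lower and a median of -0.48, beside 15.3% lower and 16.3% higher over all tested genes.

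Other single libraries also carried weight. The number of the 10 genes called lower was 5 without EGFP replicate 1, 2 without EGFP replicate 2 (Acadvl and Hadha), 1 without EGFP replicate 3 (Acadvl), 3 without TuD replicate 1 (Acadvl, Acads and Hadha) and 4 without TuD replicate 2 (Hadh no longer passing). Over all tested genes the share called lower in these fits was 9.87%, 7.09%, 8.37%, 9.53% and 9.92%, in the same order. In each of these the 5 genes kept their direction.

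Gene length went with the fold change over the whole table. Among tested genes the Pearson r between log2 fold change and log10 of the deposited length was -0.386, across genes, which are not independent replicates. The median log2 fold change went from 0.49 in the shortest decile of genes to -0.17 in the longest decile. Over the 10 genes r was -0.526 (Spearman -0.564). Eci1, in the shortest decile, and Acaa2, in the next, had the highest fold changes of the 10, and Hadha and Echs1 lay in the ninth.

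With each library's trend with length removed, the same 5 genes were lower, at log2 fold changes of -0.77 for Acadvl (adjusted p 0.008), -0.61 for Acads (0.00654), -0.39 for Hadha (0.0314), -0.34 for Hadhb (0.0379) and -0.49 for Hadh (0.0314). On that scale 12.7% of tested genes were lower and 11.4% higher. Eci1 and Acaa2 turned to -0.23 and -0.23 and did not pass (adjusted p 0.0977 and 0.165). Acadl stood at -0.24 (0.128), Acadm at -0.26 (0.271) and Echs1 at 0.041 (0.806). The median over the 10 was -0.30, against -0.0014 over all tested genes.

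**Figure D4:**
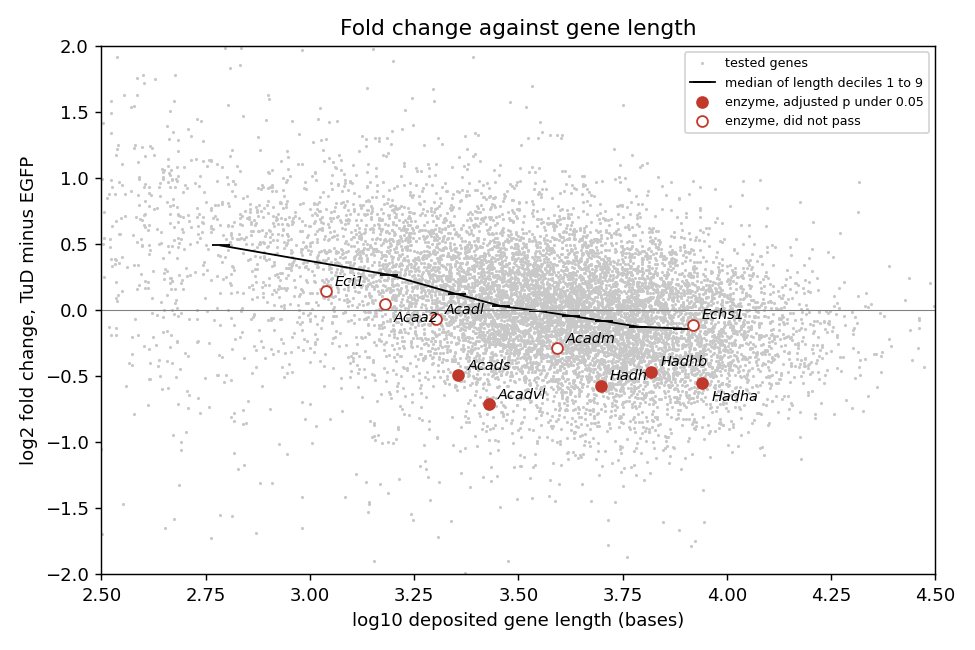
Log2 fold change (vertical axis, TuD minus EGFP) against log10 of the deposited gene length for tested genes (grey), with the median of each length decile except the longest, and the 10 genes marked, filled where they passed. The axes leave out 165 genes, among them those beyond ±2. Acadvl and Acads lie well below the medians of genes of their length, and Eci1 lies below the median of the shortest genes although its value is above 0.

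The direction of the 5 genes was the same under every scaling tried. When FPKM was rescaled to the same total in each library (TPM), the all-gene median became -0.36, with 438 tested genes called higher and 4202 lower in place of 1550 and 1489. The median of the 10 genes was then -0.76, and 8 were called lower, beside 40.2% of all tested genes. Quantile normalisation, under which the all-gene median was -0.0056, put 9 lower, with Echs1 as the exception, beside 16.1% lower and 14.1% higher over all tested genes. Acaa2 and Eci1 were above 0 with the scaling used here and below 0 under TPM (-0.34 and -0.25) and quantile normalisation (-0.41 and -0.28).

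The deposited lengths bear on the levels as well as on the trend. For 8 of the 10 genes the coordinates were the same in GENCODE M21, and there the deposited length equals all annotated exons joined, retained-intron transcripts included. The deposited length was 5.32 times the principal transcript for Echs1, 3.22 times for Hadhb, 2.78 times for Hadh, 2.17 times for Hadha and 1.91 times for Acadm, but 0.96 to 1.24 times for the other 5. A long model divides the same reads by more bases and lowers FPKM.

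Per deposited length the order in EGFP hearts was Acaa2 (870.0 ± 65.4 normalised FPKM, SD, n = 3), Acadl (543 ± 36.6), Eci1 (365 ± 30.1), Acadm (303 ± 26.9), Acadvl (283.5 ± 4.68), Hadhb (249 ± 10.4), Hadha (229 ± 10.7), Acads (176 ± 18.6), Hadh (162 ± 10.5) and Echs1 (57.2 ± 3.10). Per principal transcript length it was Acaa2 (869 ± 65.3), Hadhb (801 ± 33.5), Acadm (579 ± 51.5), Acadl (568 ± 38.4), Hadha (497.5 ± 23.2), Hadh (449.9 ± 29.3), Acadvl (351 ± 5.80), Eci1 (350.1 ± 28.9), Echs1 (304 ± 16.5) and Acads (213 ± 22.5). On the second scale the EGFP libraries of neighbours overlapped for Acaa2 and Hadhb, Acadm and Acadl, and Acadvl and Eci1, and did not for the other neighbours. Acaa2 led on both scales. Hadhb moved from the sixth place to the second, and Eci1 from the third to the eighth. In TuD hearts, on the second scale, Acaa2 was at 900.3 ± 96, Hadhb at 580.5 ± 51.1, Acadvl at 216 ± 36.9 and Acads at 151 ± 1.55 (SD, n = 3).

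**Figure D5:**
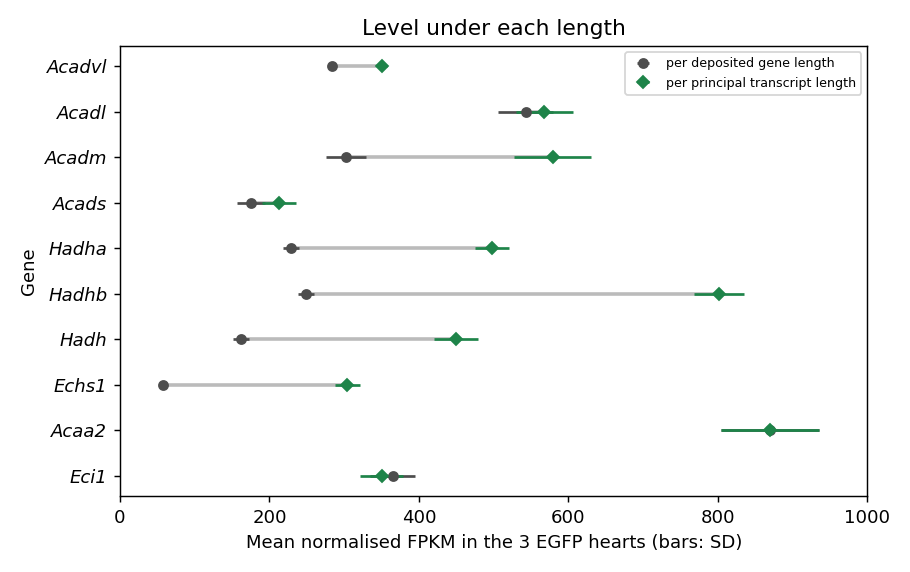
Level of each gene (rows) in the EGFP hearts per deposited length (circles) and per principal transcript length (diamonds), as normalised FPKM (horizontal axis, mean ± SD of 3 libraries). A grey line joins both values of a gene. The values of Hadhb lie furthest apart, and those of Acaa2 and Eci1 lie closest together.

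With the trend taken on principal transcript length, a choice made after the data were seen, all 10 log2 fold changes were negative and the same 5 genes passed, at -0.73 for Acadvl, -0.57 for Acads, -0.41 for Hadha, -0.50 for Hadhb and -0.67 for Hadh.

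Overlapping and copied genes could feed reads to some of the 10, since the strand setting of the counting is not given in the sources used here. Dvl2 overlaps Acadvl by 2119 bases on the opposite strand and was at 1.10 ± 0.24 normalised FPKM in EGFP and 1.07 ± 0.13 in TuD (SD, n = 3). Paox overlaps Echs1 by 678 bases and was at 0.715 ± 0.0653 and 1.16 ± 0.314. Both are far below the gene they overlap. The Eci1 pseudogene AC087898.5 had at most 0.576 FPKM.

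The steps around the spiral were followed in 6 lists of related genes, 48 of them tested, of which 18 were lower, 2 higher and 28 did not pass, beside 14.2% lower and 14.8% higher over all tested genes. Activation to acyl-CoA and the carnitine shuttle bring fatty acids to the spiral, and 4 of 11 tested genes fell with none higher. Acsl1, the main acyl-CoA synthetase of the heart, was at 81.4, 74.2 and 75.1 in EGFP and 49.3, 40.7 and 48.5 in TuD (log2 fold change -0.73, adjusted p 0.00436). Slc25a20, the carnitine-acylcarnitine carrier, fell by 0.50 on the log2 scale (adjusted p 0.0159), Crat, carnitine acetyltransferase, by 0.39 (0.0202), and Cpt1a, the liver-type outer carnitine palmitoyltransferase, by 0.53 (0.0283).

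Other mitochondrial acyl-CoA dehydrogenases fell in 4 of 7 cases with none higher. These were Acad11 (-0.71, adjusted p 0.00478), Acad9, also an assembly factor of complex I (-0.67, 0.0141), Ivd, the isovaleryl-CoA dehydrogenase of leucine breakdown (-0.65, 0.0153), and Acad12 (-0.45, 0.0153), which did not pass after the length trend was removed (adjusted p 0.0542). A further list held mitochondrial enzymes of related reactions, not all of them hydroxyacyl dehydrogenases or thiolases, and 1 of 6 passed. Hsd17b10, a dehydrogenase of isoleucine breakdown, was higher (0.42, adjusted p 0.0223), and its change did not pass after the length trend was removed (0.10, 0.496).

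Electrons from the acyl-CoA dehydrogenases pass to the flavoprotein ETF and its oxidoreductase. Etfb, a subunit of ETF, was at 59.1, 55.5 and 64.9 in EGFP and 162, 208 and 126 in TuD, without overlap. Its log2 fold change was 1.43 (adjusted p 0.00253). Etfdh, the oxidoreductase, fell by 0.52 (adjusted p 0.0244), and after the length trend was removed its adjusted p was 0.0552. The other 4 of 6 tested genes of this list did not pass.

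In peroxisomes a separate set of enzymes shortens very long and branched chains, and 4 of 7 tested genes fell with none higher. Among them were Hsd17b4, the peroxisomal bifunctional enzyme (-0.45, adjusted p 0.0128), Amacr (-0.41, 0.0292) and Acox3 (-0.50, 0.0319), the last of which did not pass after the length trend was removed (adjusted p 0.0956).

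Regulators of these genes fell in 5 of 11 cases with none higher. Ppara, which encodes PPARα, was at 8.709, 9.999 and 6.285 normalised FPKM in EGFP and 0.906, 0.669 and 2.08 in TuD. All TuD libraries lay far below the controls, and the log2 fold change was -2.42 (adjusted p 0.00248). With the Y-linked term, that is from TuD replicate 3 as the only TuD library, it was at -1.75. Rxra, the partner of PPARα on DNA, fell by 0.56 (adjusted p 0.00574), Esrrb by 0.59 (0.0114), Ppargc1b by 1.17 (0.0144) and Ppard by 0.55 (0.0205). After the length trend was removed the adjusted p of Ppard was 0.0567. Ppargc1a, the coactivator PGC-1α, was at 6.80, 7.98 and 5.39 in EGFP and 6.30, 5.05 and 7.99 in TuD, with a log2 fold change of -0.062 ± 0.19 (adjusted p 0.827). Esrra, the estrogen-related receptor alpha, stood at 105, 122 and 105 in EGFP and 104, 97.1 and 101 in TuD, a log2 fold change of -0.13 ± 0.11 (adjusted p 0.369). Neither passed. With the Y-linked term 5 of the 48 related genes were lower and 1 higher.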

How the data were processed

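Total RNA of frozen mouse hearts was sequenced in 6 NEBNext Ultra libraries, per the labels' protocols. HISAT2 2.0.5, featureCounts 1.5.0-p3 and mm10 are named in the submitters' processing notes; the annotation release and strand setting are not given in the sources used here. The values deposited by the authors are FPKM per gene with the gene's length. Multiplying FPKM by length returned whole reads (tolerance 0.05) for 100% of values, which gave the depths and allowed an alternative test on reads.

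FPKM was divided by median-of-ratios size factors over tested genes (0.989 to 1.015). Genes that reached an FPKM of 1 in 3 or more of the 6 libraries were tested with limma 3.58.1 (R 4.3.3; lmFit and eBayes with trend, two-sided) on log2 of normalised FPKM plus 0.5, Benjamini-Hochberg adjusted over 10460 genes, threshold 0.05. Fold changes are on that scale, TuD minus EGFP. Samples were grouped by the labels, which do not say whether libraries of a group come from separate animals, so p-values measure the spread between these libraries. Replicates of a group differed by more than counting error. Length trends were lowess fits with a span of 0.3 per library.

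GENCODE M21 (GRCm38) held 54495 of 54532 gene identifiers. Promoter windows and microRNAs are from RefSeq. GC content came from each gene's principal transcript, chosen over the longest transcript after its effect on the Hadhb to Hadha ratio was seen.

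The 10 genes, the related lists and the marker lists were chosen with earlier results of these data known. Named genes were the 10, up to 3 passing genes of each related list by p, and Ppara, Ppargc1a and Esrra. Cpt1a, Cpt1b, Acad12, Acox3, Ppargc1b, Ppard, Cfd, the 4 atrial genes, Ucp1 and Cidea fall outside that rule, and their choice followed a look at the values. The values of 1 gene that the rule names are not reported here. The pipeline was tested on simulated data. Alternatives covered the scaling, the pseudocount, the filter, the variance model, a test on reads (limma-voom), a replicate block, corrections for length and GC, a term for Y-linked transcripts, the threshold, and the omission of each library.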

Additional observations from a re-analysis of the deposited data

How the results depend on the processing

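The 5 genes called lower (Acadvl, Acads, Hadha, Hadhb and Hadh) were negative under each of the alternatives run, and none of the 10 was called higher under any. The count called lower was 8 under TPM, 9 under quantile normalisation, 4 without the filter (Hadh at an adjusted p of 0.055), 0 with the Y-linked term, 1 at an adjusted p under 0.01, and 1 to 6 with a library left out. The median of the 10 was -0.76, -0.70 and -0.13 under TPM, quantile normalisation and the Y-linked term, and -0.48 to -0.30 with a library left out. Tested genes higher and lower, 1550 and 1489, became 438 and 4202 under TPM, 989 and 947 without the filter, 638 and 543 with the Y-linked term, and 569 and 506 at 0.01. Those higher were 1013 after length and GC correction and 1024 after correction on principal length. With a library left out 888 to 1703 were higher and 742 to 1598 lower. Of the 48 related genes 18 were lower, against 30 under TPM, 11 without the filter, 5 with the Y-linked term, 4 at 0.01 and 7 to 19 with a library left out. The 2 higher became 1 under TPM, quantile normalisation, each length correction, the Y-linked term and at 0.01, and 1 to 2 with a library left out.

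Signs turned for some genes that had not passed. Acaa2 was at -0.34 (TPM), -0.41 (quantile), -0.23 (length), -0.15 (length and GC), -0.13 (principal length), and -0.0070 and -0.0078 without EGFP and TuD replicate 2. Eci1 was at -0.25, -0.28, -0.23, -0.15 and -0.18 in the first 5 of these. Echs1 was at 0.0414 (length), 0.0899 (length and GC) and 0.0912 (Y-linked term), and Acadl and Acadm at 0.0324 and 0.0669 with that term. Ppargc1a was at 0.0642 (length), 0.14 (principal length) and 0.25 (Y-linked term), and between -0.22 and 0.0894 with a library left out, above 0 without EGFP replicate 2 (0.0618) or TuD replicate 2. The Hadhb to Hadha difference was -0.10 after length and GC correction and -0.094 on principal length, and 0.0594 to 0.10 with a library left out. Length and GC correction added Acadl to the genes called lower (adjusted p 0.0278). The cause of each was not tested.

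Same-numbered libraries did not deviate together (r 0.064, 0.089 and -0.055). With 3 libraries per group this cannot show whether they shared more than a number, and the labels do not say. With the replicate block 5 of the 10 were lower, as without it, and 1447 and 1195 tested genes were higher and lower. By limma-voom on the recovered reads 5 of the 10 were lower, with 1588 and 1698 tested genes higher and lower. Depth gave at least 4022 reads to each of the 10 genes in each library, and the number of libraries limits the precision.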
